A study of Mus musculus with 6 samples.

Results

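The 9 genes described here encode proteins that start, brake or sense blood clotting at the cell surface, or that turn plasminogen into the clot-dissolving protease plasmin. They are Thbd, F3, Tfpi, Tfpi2, F2r, Plat, Plau, Plaur and Serpine2, and they were taken by gene symbol from a table of exon counts for 24940 genes, in which each has 1 row and 1 genomic copy. The set was built around Thbd because Thbd had one of the clearest falls in this same comparison, so the differences of the 9 genes are given as a description. What the fits over all genes called among them is printed, also for other settings, and nothing is read from it. Counts were measured in polyadenylated RNA of primary hepatic stellate cells from wild-type female C57BL/6JBomTac mice, in 3 OCA+VIP libraries and 3 DMSO+VIP libraries. On day 2 after isolation the OCA+VIP cells were given 10 µM obeticholic acid (OCA), a drug made from a bile acid, which switches on the bile acid receptor FXR. The DMSO+VIP cells were given an equal volume of the solvent DMSO alone (1:1000). VIP, the neuropeptide vasoactive intestinal peptide, which signals through cAMP, followed in both groups after 3 h, at 500 nM and for 3 h more. Both groups thus carried VIP, and the comparison is of OCA with vehicle in cells then given VIP. Whether libraries of 1 group stem from different mice or dishes is not in the labels, so p-values measure only the spread between these libraries, which may be technical. The labels call the OCA+VIP cells stimulated and the DMSO+VIP cells control.

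Clotting begins when tissue factor, the product of F3, binds factor VII, and tissue factor pathway inhibitor (Tfpi) blocks that complex. The thrombin made downstream cleaves fibrinogen and signals through protease-activated receptor 1 (F2r), but thrombin held by thrombomodulin (Thbd) activates protein C and so shuts the cascade down. Clots and matrix are dissolved by plasmin, which tissue-type (Plat) and urokinase-type (Plau) plasminogen activator release from plasminogen. Hepatocytes make most plasma clotting factors, thrombomodulin is best known from endothelium, and stellate cells are known to respond to thrombin.

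Column totals were 4.53e+06 to 9.95e+06 counts with OCA+VIP and 2.84e+06 to 4.57e+06 with DMSO+VIP. Low counts came mostly in steps of 3 or 6, and in OCA+VIP library 2, the deepest one, 65.4% of counts up to 30 lay within 0.5 of a multiple of 3, against 82.9% to 87.5% in the other 5 libraries. All 12 stellate cell markers were detected, and their sum was 964 to 1094 CPM (counts scaled to the column total) with OCA+VIP and 805 to 1052 CPM with DMSO+VIP. Within that sum 4 were called higher with OCA (Dcn, Ecm1, Ngfr and Colec11, the last 4.49-fold) and 2 lower (Des and Hgf, of which Hgf 4.32-fold), where 5.72% of all tested genes were called higher and 6.04% lower (edgeR, adjusted p under 0.05). The sum of 14 hepatocyte markers was 249 to 400.3 CPM with OCA+VIP and 72.6 to 82.1 CPM with DMSO+VIP, with Tat at 0 in every library, and 8 of the 10 that could be tested passed the test as higher. Of these 10, 6 did not pass the low-count filter on the DMSO+VIP libraries alone, so they entered the test through the group where they are high. Among the called ones these were Ttr, Apoh, Serpina1b, Cyp2e1 and Ahsg, and nothing is read from their calls. Alb, Apoa1 and Trf, also called higher, passed the filter on either group alone. For 11 endothelial markers the sum was 16.8 to 26.3 CPM with OCA+VIP and 18.9 to 36.6 CPM with DMSO+VIP. Lyve1 and Cldn5 had no counts, Pecam1 averaged 4.23 CPM with OCA+VIP and 1.14 CPM with DMSO+VIP, and Egfl7, at 10.8 CPM with OCA+VIP and 25.5 CPM with DMSO+VIP, held most of the sum. The 8 macrophage markers summed to 31.0 to 42.5 CPM with OCA+VIP and 15.3 to 40.7 CPM with DMSO+VIP, with Ptprc, C1qa and C1qb at 0. The 6 platelet markers summed to 11.9 to 21.4 CPM with OCA+VIP and 12 to 17.4 CPM with DMSO+VIP, with Ppbp and Gp9 at 0. Of 5 mesothelial markers Msln, Upk3b, Upk1b and Lrrn4 had no counts, and of 4 cholangiocyte markers Krt7 had none. Krt19, on both lists, averaged 12.2 CPM with OCA+VIP and 6.71 CPM with DMSO+VIP. Its groups overlapped, since DMSO+VIP library 3 had 13.3 CPM and OCA+VIP library 3 had 10.2 CPM, and it did not pass the test.

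Thbd, a gene of 1 exon on chromosome 2 (148404471 to 148408188, mm10, minus strand), had the largest difference of the 9. Its level was 254, 387 and 266 CPM in OCA+VIP libraries 1 to 3, against 1089.7, 1141 and 1110.5 CPM in DMSO+VIP libraries 1 to 3. The groups lay far apart, the DMSO+VIP libraries were close together, and OCA+VIP library 2 was the one nearest to them. Thbd averaged 302 ± 73.4 CPM with OCA+VIP and 1114 ± 25.9 CPM with DMSO+VIP (SD, n = 3 each), a 3.75-fold lower level with OCA (log2 fold change -1.90, SE 0.14). Per kilobase of exon it was the gene of rank 1228 among the 11286 tested genes with OCA+VIP and of rank 180 with DMSO+VIP. In RNA of a whole culture, fewer cells that express a gene and less of its RNA per cell cannot be told apart. The endothelial marker sum, given above, overlapped between the groups, but the 3 markers that could be tested did not share a direction. Egfl7, which held most of the sum, was the 1 that passed, as lower with OCA. Pecam1 and Tek, both of few counts, had log2 fold changes of 1.89 and 0.73 and did not pass. Pecam1 entered the test through the OCA+VIP group. The part of endothelial RNA in the Thbd values was not tested.

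Tissue factor and its inhibitors did not share a direction. F3 (chromosome 3, 121723537 to 121735052), which starts the cascade, had 31.4, 41.7 and 38.1 CPM with OCA+VIP and 56.5, 46.0 and 55.3 CPM with DMSO+VIP. The groups did not overlap, but the gap between OCA+VIP library 2 and DMSO+VIP library 2 was narrow (log2 fold change -0.52, SE 0.19). Tfpi (chromosome 2, 84440723 to 84476759) had 40.2, 64.9 and 50.6 CPM with OCA+VIP and 96.7, 103 and 94.8 CPM with DMSO+VIP. All OCA+VIP libraries lay well below all DMSO+VIP libraries, and the level was 1.91-fold lower with OCA (log2 fold change -0.93, SE 0.16). Tfpi2 (chromosome 6, 3962589 to 3968375), a related Kunitz-type inhibitor that acts on plasmin and other serine proteases, went the other way. It had 20.3, 25.6 and 34.7 CPM with OCA+VIP and 14.8, 10.9 and 14.9 CPM with DMSO+VIP, without overlap (1.94-fold higher with OCA, log2 fold change 0.96, SE 0.30). Its counts were small, with 31 to 67.5 per DMSO+VIP library, or 5.17 to 11.2 steps of 6.

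F2r (chromosome 13, 95601780 to 95618466), the thrombin receptor, had 95.7, 112 and 126 CPM with OCA+VIP and 147, 91.4 and 124 CPM with DMSO+VIP. Both groups covered much the same range, and the log2 fold change of -0.14 was smaller than its SE of 0.15.

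**Figure D1:**
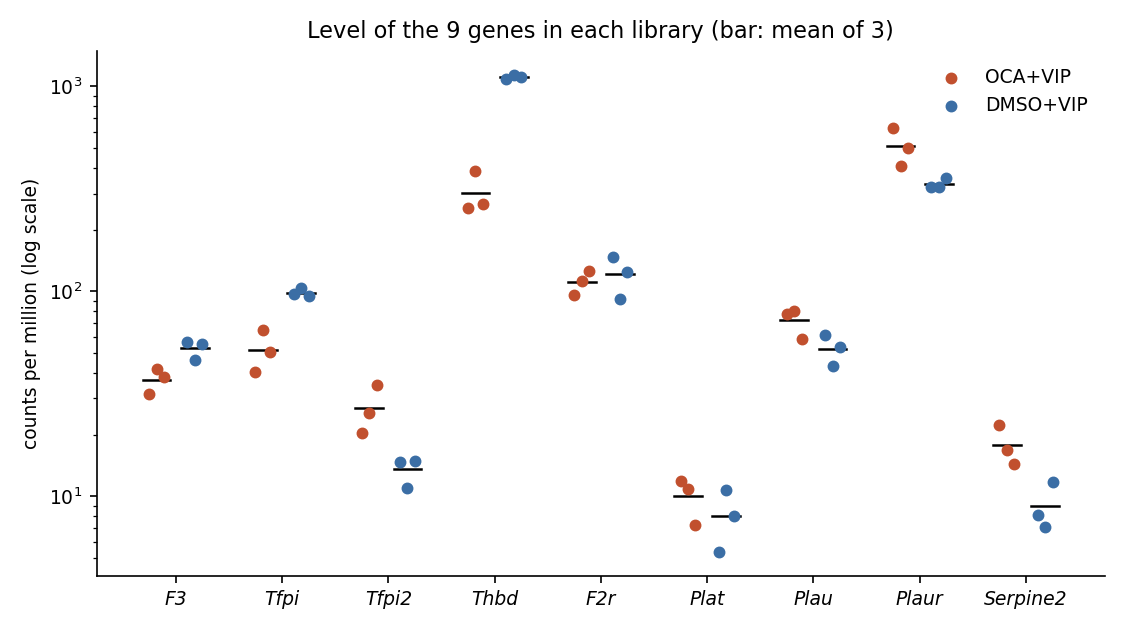
CPM (log axis) of the 9 genes in each of 3 OCA+VIP libraries (left of each pair) and 3 DMSO+VIP libraries (right), with bars at the mean of each group. Thbd stands at 254 to 387 CPM with OCA+VIP and 1089.7 to 1141 CPM with DMSO+VIP, while the points of F2r, Plat and Plau overlap between the groups.

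On the plasminogen side, the receptor was the abundant member. Plaur (chromosome 7, 24462483 to 24475968), which encodes the receptor that holds urokinase at the cell surface, had 629.9, 409.7 and 503 CPM with OCA+VIP and 322, 324 and 356 CPM with DMSO+VIP. Every OCA+VIP library was above every DMSO+VIP library, and OCA+VIP library 2 was again the nearest to them. Plaur averaged 514 ± 111 CPM with OCA+VIP and 334 ± 19.1 CPM with DMSO+VIP (SD, n = 3 each), 1.53-fold higher with OCA (log2 fold change 0.62, SE 0.15). Plau (chromosome 14, 20836662 to 20843388), urokinase itself, had 77.3, 80.2 and 58.8 CPM with OCA+VIP and 61.2, 43.0 and 53.4 CPM with DMSO+VIP. OCA+VIP library 3 lay below DMSO+VIP library 1, so the groups overlapped (log2 fold change 0.43, SE 0.18).

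Plat (chromosome 8, 22757722 to 22782848), the tissue-type activator, was the least abundant member, with 11.9, 10.9 and 7.24 CPM with OCA+VIP and 5.36, 10.7 and 8.04 CPM with DMSO+VIP. Its 24.5 to 30.5 counts per DMSO+VIP library are 4.08 to 5.08 steps of 6, and with a log2 fold change of 0.33 (SE 0.48) a difference was not detectable at this depth. Serpine2 (chromosome 1, 79794321 to 79858665) encodes protease nexin-1, an inhibitor of thrombin and of both plasminogen activators. It had 22.4, 16.8 and 14.3 CPM with OCA+VIP and 8.09, 7.04 and 11.8 CPM with DMSO+VIP. The groups did not overlap, but the counts were few, 20 to 44 per DMSO+VIP library, and the SE was wide (log2 fold change 0.98, SE 0.37).

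**Figure D2:**
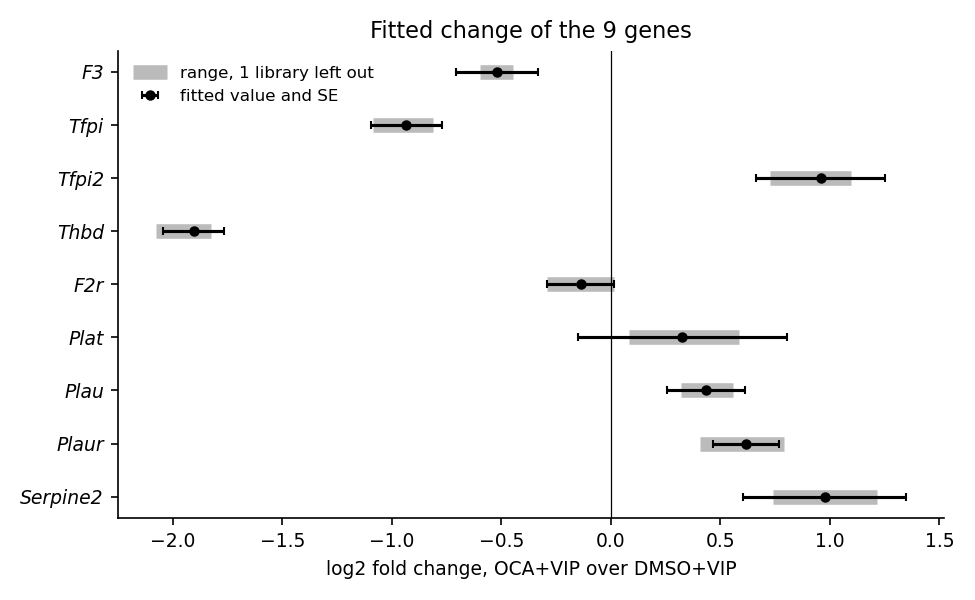
Log2 fold change of OCA+VIP over DMSO+VIP for the 9 genes, with its standard error (black) and the range of the value when each of the 6 libraries was left out (grey). Thbd lies between -2.08 and -1.82, and the range of F2r, from -0.29 to 0.02, spans 0.

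In the edgeR fit over all genes, 4 of the 9 members were past a Benjamini-Hochberg adjusted p of 0.05, Thbd and Tfpi as lower and Tfpi2 and Plaur as higher with OCA, where 11.8% of the 11286 tested genes were. Since the set was chosen from this comparison, nothing is read from that count or from which calls stayed under other settings. Plaur was not past the threshold without OCA+VIP library 1 or DMSO+VIP library 1, and Tfpi2 was not without OCA+VIP library 3 or any 1 of the DMSO+VIP libraries. Without DMSO+VIP library 1 the count of members past the threshold was 2. In 6 members the groups did not overlap in CPM, F3, Tfpi and Thbd below and Tfpi2, Plaur and Serpine2 above, as in 30.6% of the tested genes. OCA+VIP library 2 lay nearest to the DMSO+VIP libraries in F3, Tfpi, Thbd and Plaur. Without it the log2 fold changes of Thbd, Tfpi and Plaur were -2.08, -1.09 and 0.79, and without OCA+VIP library 1 they were -1.82, -0.81 and 0.41. That library is also the deepest and the least stepped, and the part of depth in these values was not tested.

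Levels of different genes were set side by side as CPM per kilobase of exon. With OCA+VIP the order was Plaur (343 ± 73.7), Thbd (81.3 ± 19.8), F2r (33.4 ± 4.59), Plau (30.9 ± 4.97), F3 (19.8 ± 2.79), Tfpi2 (17.6 ± 4.77), Tfpi (17.2 ± 4.11), Serpine2 (8.73 ± 2.02) and Plat (3.94 ± 0.97; SD, n = 3). The libraries of F2r and Plau overlapped in this order, as did those of F3, Tfpi2 and Tfpi. With DMSO+VIP Thbd came first at 299.8 ± 6.97 and Plaur second at 223 ± 12.8, followed by F2r (36.2 ± 8.34), Tfpi (32.6 ± 1.45), F3 (28.2 ± 3.09), Plau (22.6 ± 3.93), Tfpi2 (8.84 ± 1.47), Serpine2 (4.39 ± 1.22) and Plat (3.17 ± 1.06). Here the neighbours F2r and Tfpi, F3 and Plau, and Serpine2 and Plat overlapped. The deposited length of Tfpi is 3017 bases, but its transcript has 3614 exon bases in the GENCODE annotation. With annotated lengths, an alternative added after the data were seen, F3 at 28.1 came before Tfpi at 27.2 with DMSO+VIP.

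Ratios of 2 genes within a library do not depend on the scaling between libraries. Per exon length, the ratio of Thbd to Plaur was 0.163, 0.381 and 0.214 in the OCA+VIP libraries and 1.37, 1.42 and 1.26 in the DMSO+VIP libraries. Thbd RNA thus exceeded Plaur RNA in each DMSO+VIP library and was below it in each OCA+VIP library. The ratio of F3 to its inhibitor Tfpi was 1.26, 1.04 and 1.21 with OCA+VIP and 0.944, 0.719 and 0.942 with DMSO+VIP, higher in each OCA+VIP library than in any DMSO+VIP library. Its side of 1 rests on the length used: with annotated exon lengths it was 1.51, 1.24 and 1.45 with OCA+VIP and 1.13, 0.86 and 1.13 with DMSO+VIP, again without overlap. The ratio of Tfpi2 to Tfpi was 0.995, 0.778 and 1.35 with OCA+VIP and 0.301, 0.209 and 0.310 with DMSO+VIP. The ratio of the receptor gene Plaur to its ligand gene Plau overlapped between the groups, at 7.94 to 13.3 with OCA+VIP and 8.18 to 11.7 with DMSO+VIP. The members were chosen from this comparison, so nothing is read from which ratios separate the groups.

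**Figure D3:**
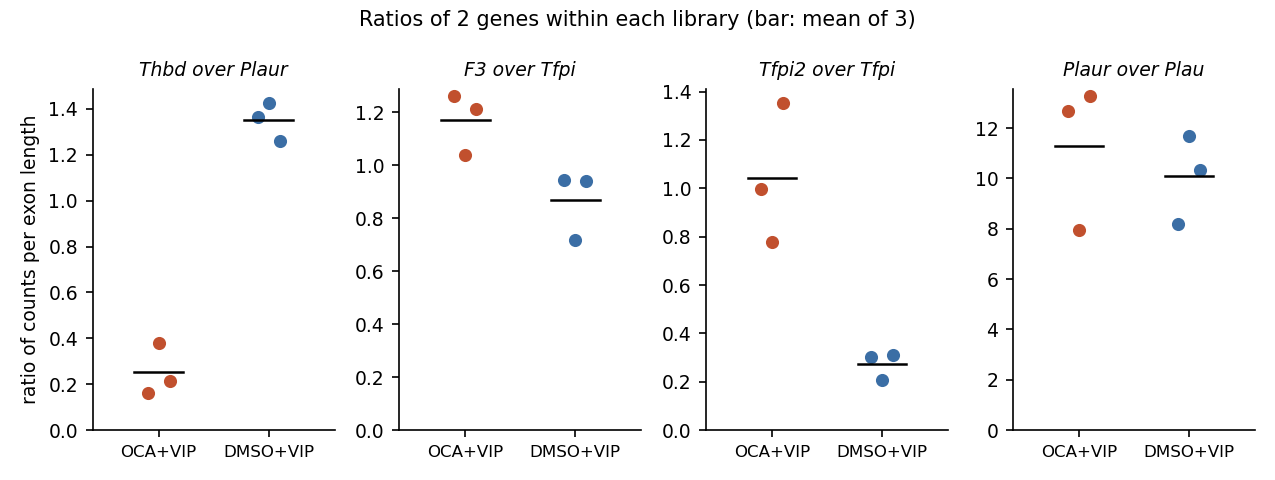
Ratios of counts per exon length of 2 genes within each library, OCA+VIP left of DMSO+VIP, with bars at the mean of 3 libraries. The ratio of Thbd to Plaur lies at 0.163 to 0.381 with OCA+VIP and 1.26 to 1.42 with DMSO+VIP, and the ratio of Plaur to Plau overlaps.

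The 250 bases before the transcript start are printed for Plaur and Tfpi2, in which all OCA+VIP libraries lay above all DMSO+VIP libraries, and for Tfpi, in which they lay below, to show which short motifs they hold. Serpine2 lay above and F3 below in the same way, and their windows were searched but are not printed. The printed sequences are RefSeq's for GRCm38.p6, on the strand of the gene. They lie at chr7:24462233-24462482 (plus strand), chr6:3968376-3968625 (minus) and chr2:84476760-84477009 (minus). Capitals mark matches to any of 6 motifs searched on both strands.
Plaur: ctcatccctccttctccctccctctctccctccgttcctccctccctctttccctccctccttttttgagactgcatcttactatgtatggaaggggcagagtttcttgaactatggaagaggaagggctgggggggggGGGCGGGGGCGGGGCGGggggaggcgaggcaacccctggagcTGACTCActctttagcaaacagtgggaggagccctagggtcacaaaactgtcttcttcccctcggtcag
Tfpi2: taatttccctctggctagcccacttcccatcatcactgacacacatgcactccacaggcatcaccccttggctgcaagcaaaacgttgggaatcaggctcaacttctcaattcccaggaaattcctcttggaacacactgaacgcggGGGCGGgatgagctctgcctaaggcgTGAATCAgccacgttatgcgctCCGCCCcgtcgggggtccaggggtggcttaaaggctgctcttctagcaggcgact
Tfpi: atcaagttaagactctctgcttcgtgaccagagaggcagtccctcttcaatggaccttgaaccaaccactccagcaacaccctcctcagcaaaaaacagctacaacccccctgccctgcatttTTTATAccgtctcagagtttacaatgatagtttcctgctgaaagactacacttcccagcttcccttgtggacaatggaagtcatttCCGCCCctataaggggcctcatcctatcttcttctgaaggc
The motifs were that of the factor AP-1, TGANTCA, the core of the cAMP response element (CRE), TGACG, and that of the factor SP1, GGGCGG. The others were the TATA box, searched for as its letters TATAAA, the hexamer bound by many nuclear receptors, AGGTCA, and the NF-kB motif. SP1 matches at 105 to 100 and 100 to 95 bases before the start of Plaur share 1 base. An AP-1 match stands at 69 to 63 bases before the start of Plaur (TGACTCA) and at 77 to 71 bases before that of Tfpi2 (TGAATCA). The Tfpi window holds a TATA match on the opposite strand at 127 to 122 bases and an SP1 match at 41 to 36 bases before the start. Windows at the deposited transcript's start were matched for 6 of the 9 members, not for Thbd, Plat and Plau. AP-1 was found in 4 of these 6 (F2r, F3, Plaur and Tfpi2), against 6.75% of all 32851 promoter windows of this length. SP1 was found in all 6, against 32.7%. Those 32851 windows were not limited to tested genes. The 6 member windows were 48.4% to 78.8% G or C, which the comparison did not match, so nothing is read from these counts. The window of F3, which lay below with OCA, holds 2 AP-1 matches, and that of Serpine2, which lay above, holds no AP-1 match. The window of F2r, whose groups overlapped, holds 1. No match to the CRE core, the nuclear receptor hexamer or NF-kB was found in these 6 windows, while 17.8%, 14.0% and 0.356% of all windows hold one. A match of letters is a description of the window and not a binding site.

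The wider pathway was described by 3 lists of other genes, none of them a member. The lists were chosen with earlier results of these data known, so nothing is read from their counts against the share over all genes. Of 28 genes for plasma clotting factors, their inhibitors and the proteins that process them, 5 had no counts (F5, F7, F13a1, F13b and Serpina5) and 12 could be tested. Only Fgb, the fibrinogen beta chain, passed the test, as higher, and 11 did not (edgeR's quasi-likelihood test at an adjusted p of 0.05, where 11.8% of all tested genes were past it and 5.72% were higher). Fgb had 22.3, 7.39 and 5.68 CPM with OCA+VIP and 1.42, 0 and 3.21 CPM with DMSO+VIP (log2 fold change 2.89 with an SE of 0.79, adjusted p = 0.019 by edgeR). Its DMSO+VIP counts were 6.5, 0 and 12, so Fgb entered the test only through the group where it is high. The call was lost without OCA+VIP library 1 (adjusted p = 0.28 by edgeR) or without DMSO+VIP library 1 (0.079). The median log2 fold change of the 12 was 1.5, against 0.00 over all tested genes, with 8 values above 0 and 4 below. Of the 8 above 0, 7 would not have passed the low-count filter on the DMSO+VIP libraries alone, so the filter largely fixed the median and this split, and nothing is read from them. The 4 below 0 were the cargo receptor genes Mcfd2 (-0.33) and Lman1 (-0.12), the protein S gene Pros1 (-0.20), the cofactor of activated protein C, and the vitamin K reductase gene Vkorc1 (-0.02), which shares 53.6% of its exon bases with Gm21974. The hepatocyte marker sum was higher with OCA in the same libraries, as given above, and the part of hepatocyte RNA in the values of this list was not tested.

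Of 20 genes for receptors, membrane proteins and heparan sulfate enzymes that act on clotting proteases at the cell surface, 11 could be tested. By edgeR none passed, where 11.8% of all tested genes did, while 2 had an unadjusted p under 0.05 and DESeq2 and limma-voom each called 2 (Procr higher and Anxa2 lower). Procr, the protein C receptor that works beside thrombomodulin, had 1058, 646 and 912 CPM with OCA+VIP and 569.6, 634 and 661 CPM with DMSO+VIP. OCA+VIP library 2 lay inside the DMSO+VIP range (log2 fold change 0.48 with an SE of 0.16, adjusted p = 0.057 by edgeR). Without that library the value was 0.69 (adjusted p = 2.0e-05 by edgeR), and without OCA+VIP library 1 it was 0.28 (adjusted p = 0.31 by edgeR), the lowest and the highest adjusted p over the 16 alternatives. The phosphatidylserine-binding annexin gene Anxa5 (-0.03) and the disulfide isomerase genes P4hb (0.21) and Pdia3 (-0.14) did not pass. The median log2 fold change of the list was -0.14. The receptors related to F2r were at or near 0, with 3 counts of F2rl1 over the OCA+VIP group, 6 of F2rl3 over the DMSO+VIP group and none of F2rl2.

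Of 23 genes for plasminogen, its inhibitors, binding proteins, clearance receptors and substrates, 18 could be tested, 3 were called lower, 0 higher and 15 did not pass, where 6.04% of all tested genes were called lower. This list too was chosen with earlier results of these data known, so nothing is read from its count against that share. Hgf, the hepatocyte growth factor that plasminogen activators can activate, had 13, 12 and 8.27 CPM with OCA+VIP and 40.8, 45.3 and 56.9 CPM with DMSO+VIP. It was 4.32-fold lower with OCA (log2 fold change -2.11, SE 0.26, adjusted p = 9.6e-06 by edgeR), and it is also one of the 12 stellate cell markers. Lrp1, the receptor that clears activator-serpin complexes and Tfpi, had 77.2, 115 and 79.2 CPM with OCA+VIP and 348, 187 and 193 CPM with DMSO+VIP. All OCA+VIP libraries were below all DMSO+VIP libraries, of which library 1 stood highest (log2 fold change -1.44, SE 0.19, edgeR adjusted p = 1.6e-05). Masp1, a protease of the lectin pathway of complement rather than of plasminogen activation, averaged 156 ± 25.5 CPM with OCA+VIP and 258 ± 22.9 CPM with DMSO+VIP (log2 fold change -0.75, SE 0.13, edgeR adjusted p = 0.00034). These 3 calls held whichever library was left out. The integrin genes Itgb1 (-0.20) and Itgav (-0.12) and the plasminogen-binding enolase gene Eno1 (0.18) did not pass, and the median of the 18 was -0.11. Plasminogen itself, Plg, chosen after its values were seen, had 10.4, 9.9 and 8.96 CPM with OCA+VIP and 5.25, 1.06 and 1.61 CPM with DMSO+VIP. The groups did not overlap, and Plg was not past the threshold (log2 fold change 1.81, SE 0.65, adjusted p = 0.072 by edgeR) but was called higher by DESeq2. Its DMSO+VIP counts were 24, 3 and 6, and it entered the test through the OCA+VIP group. Under other settings the calls added to this list were all higher ones, of Plg, Serpinf2, Vtn and Pzp. In the main fit Plg, Vtn and Pzp entered the test through the OCA+VIP group, where they are high, so nothing is read from this direction. The hepatocyte marker sum was higher in the same libraries, and the part of hepatocyte RNA in these values was not tested.

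**Figure D4:**
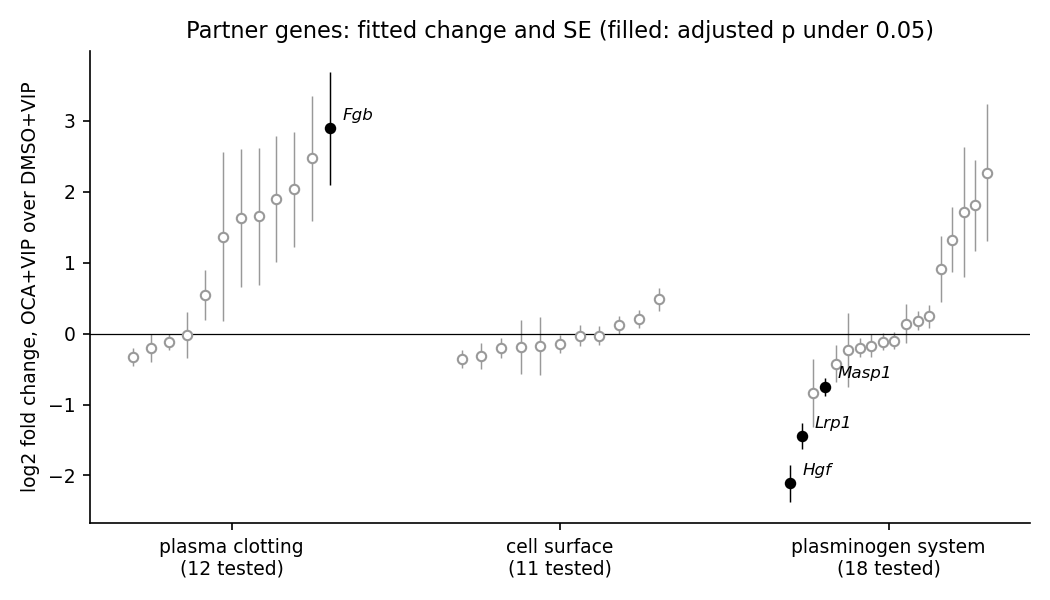
Log2 fold change and standard error of the tested genes of the 3 partner lists, sorted within each list, with filled points at an edgeR adjusted p under 0.05. Fgb (2.89) is the filled point above 0, and Hgf (-2.11), Lrp1 (-1.44) and Masp1 (-0.75) are those below it.

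The genes whose profile over the 6 libraries was most like that of Thbd were found by the root mean square difference of log2 CPM, each gene centred on its own mean, among 8777 genes of at least 10 CPM. The closest was Col5a2, a fibrillar collagen chain (difference 0.084), then Alpl, an alkaline phosphatase (0.130), Phgdh, an enzyme of serine synthesis (0.132), Usp2, a deubiquitinase (0.179), and Gucy1a1, a subunit of the nitric oxide receptor (0.185), where the median gene was at 0.998. Col5a2 had 75.8, 120.5 and 87.4 CPM with OCA+VIP and 381, 336 and 347 CPM with DMSO+VIP. As in Thbd, OCA+VIP library 2 was the highest of its group. Gucy1a1 had 41.4, 62.4 and 33.1 CPM with OCA+VIP and 137.5, 162 and 131 CPM with DMSO+VIP. The genes were chosen for likeness, so their low levels with OCA add nothing to those of Thbd.

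**Figure D5:**
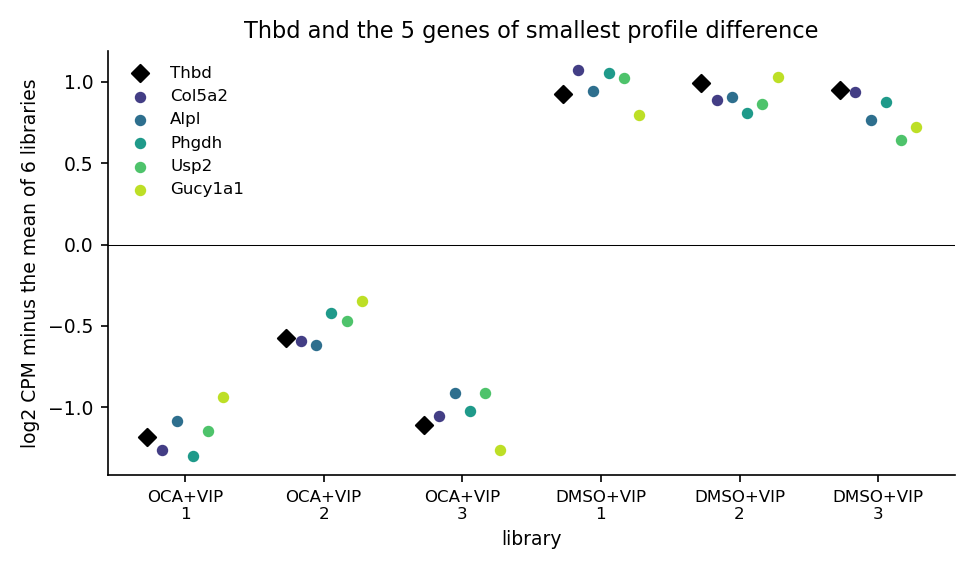
Log2 CPM minus each gene's mean over 6 libraries for Thbd (black diamonds) and the 5 genes of smallest profile difference, by library. All 6 genes are below 0 in the OCA+VIP libraries, with library 2 the least so, and above 0 in the DMSO+VIP libraries.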

How the data were processed

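The authors deposited 1 table of exon counts per gene, each with 1 RefSeq transcript. The deposited values are expected counts in steps of 0.5; column totals differ, so they were taken as unscaled. The submitters' processing notes name mm10, STAR, HOMER and DESeq2 without role, and whether counting used strand is not given in the sources used here. Columns were assigned to groups by name, and library numbers here are column numbers, since titles use letters instead. The members and lists were chosen with earlier results of these data known.

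Rounded counts entered edgeR 4.0.16 (R 4.3.3) (TMM, filterByExpr with a minimum count of 10 and total of 15, quasi-likelihood F test, two-sided, Benjamini-Hochberg adjustment over 11286 genes, threshold 0.05). The SE is the log2 fold change over the square root of F. The edgeR fit was tried on simulated counts that lack the steps of 3 or 6. That trial cannot show how the fit behaves on stepped low counts. CPM use the column total, and profiles use TMM and a prior count of 2. Partner genes named are all those past the threshold and the 4 most abundant others of each list, of which 1 gene is not reported here. Genes at 0 and single low genes of the lists, Anxa2 and cell type markers are named beside them, the first and Anxa2 after their values were seen. Alternatives were scaling by library size, upper quartile or RLE, no filter, 1 CPM in 3 libraries, DESeq2 1.42.0, limma-voom (limma 3.58.1), a replicate block, counts divided by 6, other thresholds and leaving out each library. DESeq2 on all genes was added after the data were seen. GENCODE gave exon overlaps. Figures were drawn with matplotlib 3.10.9 under Python 3.11.15, from tables made with pandas 2.3.3.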

Additional observations from a re-analysis of the deposited data

How the results depend on the processing

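The log2 fold changes of the 9 members moved by less than their spread between libraries in all 143 refits. That spread comes from the same libraries, and leaving 1 out can hardly move a value further, so nothing is read from this for those refits. Without DMSO+VIP library 1 the value of F2r went from -0.14 to 0.02 and that of Plat from 0.33 to 0.08. Of 1327 genes past the threshold, the count was 648 at 0.01 and 2244 with DESeq2 on all genes, and 737 to 1478 with 1 library left out (lowest without OCA+VIP library 1, then 751 without its library 3, and 877 without DMSO+VIP library 1). The count of 4 members past the threshold was 6 with DESeq2 on all genes (F3 and Serpine2 added), 3 with limma-voom (without Tfpi2) and 2 to 4 with 1 library left out. Since the set was chosen from this comparison, nothing is read from these counts of members. For the plasma clotting list the count of 1 became 3 with no filter, 2 with DESeq2, 4 with DESeq2 on all genes, 0 with limma-voom, 0 at 0.01 and 3 at 0.1, and 0 to 2 with 1 library left out, and with counts divided by 6 the 1 call was Mcfd2, as lower. For the cell surface list the count of 0 became 1 with upper-quartile scaling and 2 with library size alone, no filter, DESeq2, DESeq2 on all genes, limma-voom, counts divided by 6 and a threshold of 0.1, and 0 to 2 with 1 library left out. For the plasminogen list the count of 3 became 6 with no filter. It was 5 with DESeq2, DESeq2 on all genes and a threshold of 0.1, and 3 to 5 with 1 library left out. All added calls were higher ones, and nothing is read from that direction, for the reason given above. Lrp1, Masp1 and Hgf were past the threshold in each of these fits. Of the 5 genes most like Thbd, 3 to 5 remained with 1 library left out. With annotated exon lengths the mean ratios of F3 to Tfpi moved by more than their SD, to 1.40 with OCA+VIP and 1.04 with DMSO+VIP. Marker sums moved by less than their SD under TMM scaling. The cause of these shifts was not tested.

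The column numbers share no stated source, and same-numbered libraries did not deviate together (correlations of -0.035, -0.050 and 0.030 across genes). With the number as a replicate block, 1117 genes, 3 members (without Tfpi2) and 1, 0 and 3 genes of the plasma, cell surface and plasminogen lists passed. Nothing is read from the count of members here either. Counts in steps of 6 limit what can be seen for Plat, Serpine2, Tfpi2 and most plasma clotting genes.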
